A study of Homo sapiens with 5 samples.

Results

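Peaks of the p53 antibody that carried no p53 consensus and no ATF3 were examined in HCT116, a human colon cancer cell line with wild-type p53. They were selected on the peak calls themselves: a peak of the p53-CPT list on chromosomes 1 to 22 or X was taken when it overlapped no p53-KO peak and no ATF3-CPT peak by 1 bp or more, and when its sequence held no p53 20-mer, that is 2 adjoining p53 decamers without a spacer and with at most 3 mismatches. Of 9013 p53-CPT peaks on these chromosomes, 3532 (39.2%) overlapped no p53-KO peak, 2874 (31.9%) overlapped neither list, and 1591 of these lacked the 20-mer and are called no-motif peaks here. Of the others, 5481 overlapped a p53-KO peak, 658 overlapped an ATF3-CPT peak but no p53-KO peak, and 1283 had the 20-mer and neither overlap (motif sites). The question was whether the no-motif peaks looked, by score, decamers and location, more like the motif sites or more like peaks obtained without p53. For the latter, 2044 peaks of the p53-KO list that overlapped no p53-CPT and no ATF3-CPT peak and also lacked the 20-mer were used (KO-only peaks).

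The p53-CPT library came from p53-WT cells given 1.5 uM camptothecin (CPT), a topoisomerase I poison that breaks DNA, for 4 h. The p53-KO library came from p53-knockout HCT116 cells given DMSO, so that genotype and drug differ together between these lists and cannot be told apart. ATF3 antibody libraries came from ATF3-WT cells given CPT (ATF3-CPT) or DMSO (ATF3-Ctrl) and from ATF3-KO cells given DMSO (ATF3-KO). The labels state that the cells were made by AAV-mediated homologous recombination, and all 5 libraries were fixed with 1 mM DSG for 45 min and 1% formaldehyde for 10 min. There was 1 library per group and therefore no replicate error, and every interval below covers counting error over peaks only. The p53-CPT list rested on 3169743 tags with a threshold of 7 tags a peak, the p53-KO list on 1984941 tags with a threshold of 6, and the ATF3 lists on 12820520 to 15457013 tags. Of 50 well-known p53 target genes, 41 had a p53-CPT peak that no p53-KO peak overlapped between 20 kb upstream and the gene end, and 6 had any p53-KO peak there.

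p53 binds DNA as a tetramer, and each pair of subunits contacts 1 decamer, in which a CATG-like core is flanked by purines on its 5′ side and pyrimidines on its 3′ side. A full response element holds 2 decamers, usually adjoining and sometimes parted by a short spacer, and a lone decamer is called a half-site. ATF3 is a stress-induced bZIP factor that can bind p53. CA and GA dinucleotide repeats are common simple repeats of the human genome that lie mostly outside coding sequence.

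The no-motif peaks fell into sets of very different sequence. Most were centred on a dinucleotide repeat: 1202 of 1591 (75.5%, Wilson 95% interval 73.4 to 77.6) held an uninterrupted CA or GA run of at least 8 bases, on either strand, and 389 held none. This division and the length of 8 bases were chosen after the data had been seen. To show what such peaks look like, 3 run-bearing peaks are printed from the forward strand of GRCh37 (hg19), 150 bases each, with the CA, GA, TG and TC runs in capitals. They are one of the highest-scoring run-bearing peaks, in an intron of RASGEF1B (chr4:82541213-82541362), a peak 749 bp upstream of SPDYE10 (chr7:72570201-72570350) and a long CA-type run near SAMD4A (chr14:55145118-55145267).
RASGEF1B intron: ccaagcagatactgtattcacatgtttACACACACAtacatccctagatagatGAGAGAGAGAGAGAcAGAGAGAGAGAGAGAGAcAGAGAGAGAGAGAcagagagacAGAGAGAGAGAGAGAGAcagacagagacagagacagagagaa
SPDYE10 upstream: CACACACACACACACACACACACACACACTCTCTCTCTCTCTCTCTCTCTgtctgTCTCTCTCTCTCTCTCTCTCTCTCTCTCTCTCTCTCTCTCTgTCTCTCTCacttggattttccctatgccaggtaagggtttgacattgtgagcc
SAMD4A nearest: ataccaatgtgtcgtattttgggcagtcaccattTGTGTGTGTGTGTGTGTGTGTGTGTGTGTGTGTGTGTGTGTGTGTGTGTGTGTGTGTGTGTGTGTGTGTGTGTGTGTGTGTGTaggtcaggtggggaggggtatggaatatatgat

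The run-free peaks were fewer, and 14 of the 28 that scored 20 or more carried an exact p53 decamer outside any 20-mer that the rule counts. The sequences of 7 of these 28 peaks are given on the forward strand, with capitals for the matching bases of 1 pair of decamers in each. A lower-case base inside that pair is a mismatch or the spacer, and any further decamers, as near EN2 and GADD45A, are left in lower case. In KITLG (chr12:88953672-88953742), near EN2 (chr7:155275068-155275138), in SDK2 (chr17:71610589-71610659) and near ZNF81 (chrX:47675428-47675498) the decamers stood 1 bp apart. In TIGAR (chr12:4430756-4430827) they stood 2 bp apart and in a GNG12 intron whose nearest start is GADD45A (chr1:68191033-68191105) 3 bp apart. At PLK3 (chr1:45265571-45265640) they adjoined, with 4 mismatches.
KITLG: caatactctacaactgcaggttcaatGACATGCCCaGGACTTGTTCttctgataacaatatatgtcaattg
EN2: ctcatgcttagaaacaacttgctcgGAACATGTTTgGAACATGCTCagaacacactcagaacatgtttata
SDK2: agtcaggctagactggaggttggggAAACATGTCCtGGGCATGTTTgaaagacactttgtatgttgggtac
ZNF81: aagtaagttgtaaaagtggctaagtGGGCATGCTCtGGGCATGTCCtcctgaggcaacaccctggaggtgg
TIGAR: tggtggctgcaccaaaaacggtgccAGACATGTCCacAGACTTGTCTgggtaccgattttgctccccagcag
GADD45A: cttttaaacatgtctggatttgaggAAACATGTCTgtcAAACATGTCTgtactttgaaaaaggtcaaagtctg
PLK3: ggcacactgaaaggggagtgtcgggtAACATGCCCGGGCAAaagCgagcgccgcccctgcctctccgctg

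The no-motif peaks were weak by score. The findPeaks score, a tag count adjusted for tag position, ranged from 7 to 144 with a median of 8, and 544 of 1591 peaks (34.2%) stood at the threshold of 7. Motif sites ranged from 7 to 176 with a median of 13, and 179 of 1283 stood at 7. A no-motif peak drawn at random scored above a motif site with probability 0.27, counting ties as equal shares. Only 79 no-motif peaks (4.97%) scored 20 or more, against 395 of 1283 motif sites (30.8%), and 67 of 2044 KO-only peaks (3.28%) from the shallower p53-KO library. The scores of run-bearing and run-free peaks had the same median of 8 and the same quartiles of 7 and 10. These scores come from the calls that chose the peaks and are given as a description.

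**Figure D1:**
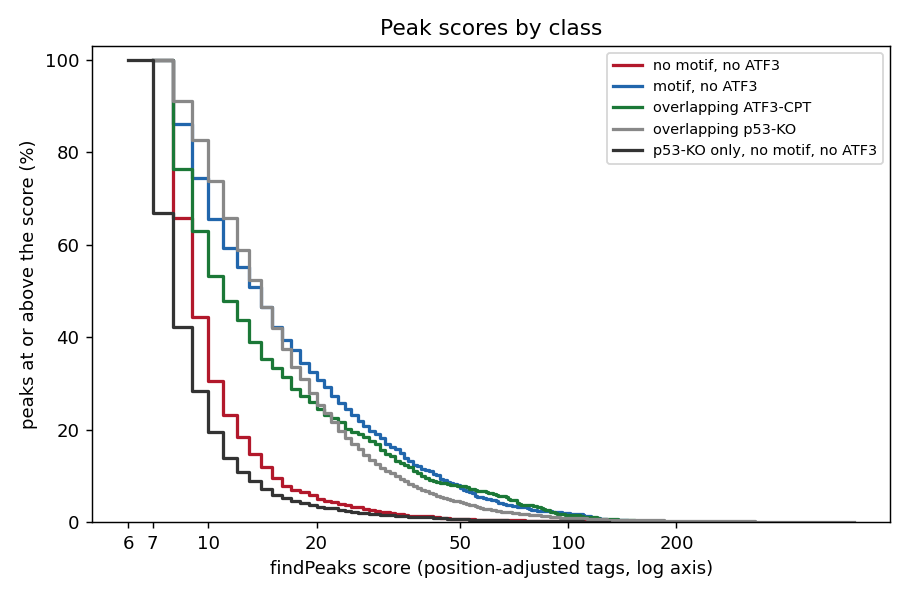
The share of peaks (%) at or above each findPeaks score (log axis) for the no-motif peaks, motif sites, p53-CPT peaks overlapping ATF3-CPT, p53-CPT peaks overlapping p53-KO, and KO-only peaks. The no-motif curve falls next to the KO-only curve, with 4.97% of peaks at 20 or more, while the motif sites hold 30.8% there. Scores are not adjusted for library size, and the median normalized tag count was 28.4 in no-motif and 40.3 in KO-only peaks.

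Most of these peaks were low against the p53-KO detection limit. The p53-KO threshold of 6 tags equals a normalized tag count of 30.2 per 10000000 tags, and 951 of 1591 no-motif peaks (59.8%) lay under it, against 35.6% of motif sites and 31.1% of all p53-CPT peaks. The limit is approximate, since the threshold acts on the position-adjusted score, and 663 of 2044 KO-only peaks (32.4%) were themselves called under it. In raw tags each of the 1591 peaks had at least 6, but so did all 9013 p53-CPT peaks. The p53-CPT threshold of 7 nearly fixed this, and raw tags ignore the difference in library size. The 5481 p53-CPT peaks that overlapped a p53-KO peak had a median of 15 tags in both libraries, and the tag ratio of p53-KO to p53-CPT had a median of 0.941 and quartiles of 0.733 and 1.23, above the ratio of 0.626 between library sizes. A p53-KO peak lay within 500 bp of 19 no-motif peaks (1.19%). The rule had removed peaks overlapping one, and the share was not computed for other sets, so this is a description.

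The dinucleotide runs were shared with peaks made without p53. A CA or GA run was present in 89.8% of KO-only peaks and in 88.4% of p53-CPT peaks overlapping a p53-KO peak, but in 14.9% of motif sites and, in windows of the same length 1000 bp to either side of the no-motif peaks, in 11.1%. Among all 9013 p53-CPT peaks the share was 70.2%, so that 75.5% in the no-motif peaks was near that of the list as a whole. It was 14.2 percentage points under KO-only peaks (Newcombe 95% interval 11.7 to 16.7 lower) and 60.7 points over motif sites (57.7 to 63.4). CA runs were in 975 no-motif peaks, with a median longest run of 46 bases, and GA runs in 434, with a median of 21 bases, and 207 peaks had both.

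The runs lay at the peak centres. The middle of the longest run was within 50 bp of the peak centre in 1096 of 1202 run-bearing peaks (91.2%), in 93.4% of KO-only peaks with a run and in 93.5% of run-bearing peaks overlapping p53-KO. Exact decamers were scarce at the same place: 11 of 1202 run-bearing peaks (0.915%) had one within 50 bp of the centre, as did 14 of 2044 KO-only peaks (0.685%). A CA or GA run cannot itself hold an exact decamer, and the longest run had a median of 44 and 42 bases in these sets. Part of the scarcity is therefore fixed by the runs. Words of 32 bases found at least 100 times in the genome were present in 73.6% of no-motif peaks, near the 71.1% of all p53-CPT peaks. Such words were present in 85.6% of KO-only peaks and 28.6% of motif sites. Their part in the placing of tags was not tested.

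**Figure D2:**
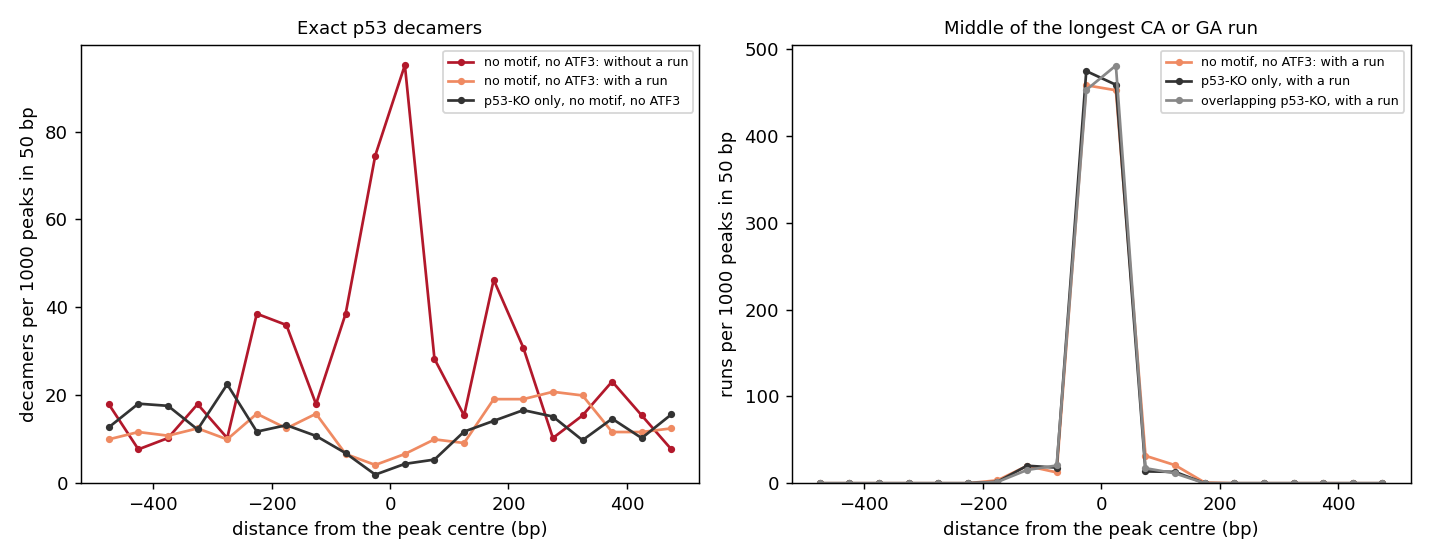
Left, exact p53 decamers per 1000 peaks in 50-bp steps of distance from the peak centre (bp), and right, the middle of the longest CA or GA run per 1000 run-bearing peaks on the same axis. Of the 3 sets drawn on the left, decamers pile up at the centre in the run-free no-motif peaks, in which 48 of 389 peaks had one within 50 bp, and 2 tandem arrays nearest CASZ1 and EN2 add 26 over the whole width of their peaks. On the right the runs sit at the centre in all 3 sets.

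Half-sites separated the run-free peaks from the knockout list. Over all no-motif peaks, an exact decamer was found in 125 (7.86%, 6.63 to 9.28), against 16.4% of all p53-CPT peaks, a share that includes the motif sites the rule removed. The comparable sets are those from which the 20-mer was removed in the same way, and these gave 4.11% in KO-only peaks and 6.10% in the flanking windows. The difference from KO-only peaks was 3.75 percentage points (2.20 to 5.37). Within the run-bearing peaks the share was 5.32%, and 1.21 points over KO-only peaks with an interval from -0.264 to 2.83. Within the run-free peaks it was 61 of 389 (15.7%), against 7 of 209 run-free KO-only peaks (3.35%), a difference of 12.3 points (7.61 to 16.6). An exact decamer lay within 50 bp of the centre in 48 of the 389 run-free peaks (12.3%) and in 2 of the 209 (0.957%).

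**Figure D3:**
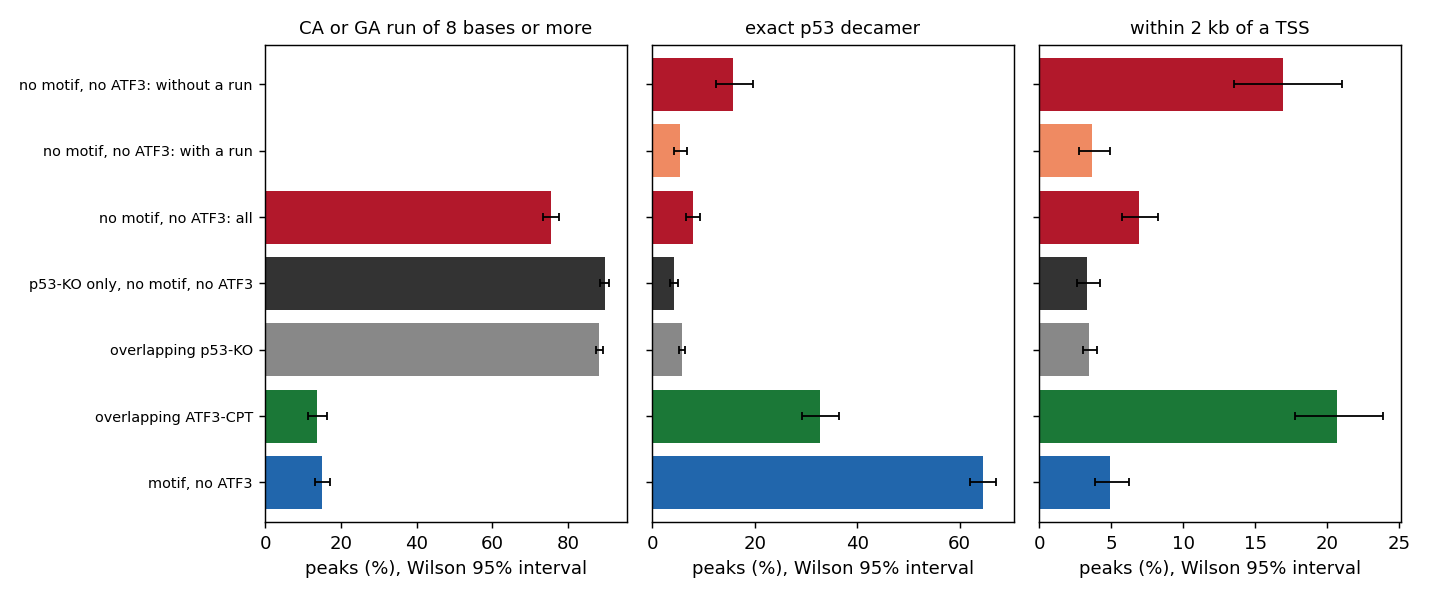
Bars show the share of peaks (%) with a CA or GA run, with an exact p53 decamer, and within 2 kb of a transcription start site (TSS), with Wilson 95% intervals, for 7 sets of peaks. Run-bearing no-motif peaks stand close to KO-only peaks in decamers (5.32% and 4.11%) and promoters (3.66% and 3.33%), whereas run-free ones reach 15.7% and 17.0%.

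Near misses of the full element followed the same division. The best 20-mer had 4 mismatches, 1 more than the rule allowed, in 448 no-motif peaks (28.2%), which had a median score of 8, while the 302 motif sites just inside the rule, with 3 mismatches, had a median of 10. The share with 4 mismatches was 41.9% in run-free and 23.7% in run-bearing peaks, and 17.7% in run-free KO-only peaks. Flanks without the 20-mer stood at 29.8%, between these values.

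Decamers parted by a short spacer were rare. A pair of decamers with at most 1 mismatch in all and a spacer of 1 to 13 bp was found in 28 no-motif peaks (1.76%), 9 KO-only peaks (0.440%) and 0.407% of flanks. In the no-motif peaks the spacer was 1 bp in 17 of 28 and 1 to 3 bp in 22, whereas none of the 9 KO-only pairs had a spacer under 5 bp. Run-free peaks held 22 of the 28, and none of the 209 run-free KO-only peaks held one, a count that allows a share of up to 1.44%. In 9 no-motif peaks the spaced pair had no mismatch, 6 of them with a spacer of 1 bp, and 21 of the 28 peaks scored 11 or more.

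Exact decamers were most frequent in the high-scoring run-free peaks. Among run-free peaks the exact decamer was present in 13.1% at a score of 7, 11.6% at 8, 7.14% at 9 to 10, 13 of 65 at 11 to 19 and 14 of 28 at 20 or more. Among run-bearing peaks the corresponding shares were 4.76%, 2.45%, 6.36%, 7.59% and 7.84%. KO-only peaks held 4.59% at 7 and 4.48% at 20 or more. Taking run-bearing and run-free peaks together, those scoring 20 or more exceeded those scoring 7 to 10 by 16.5 points (8.49 to 26.9). The bins were set after the data had been seen.

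**Figure D4:**
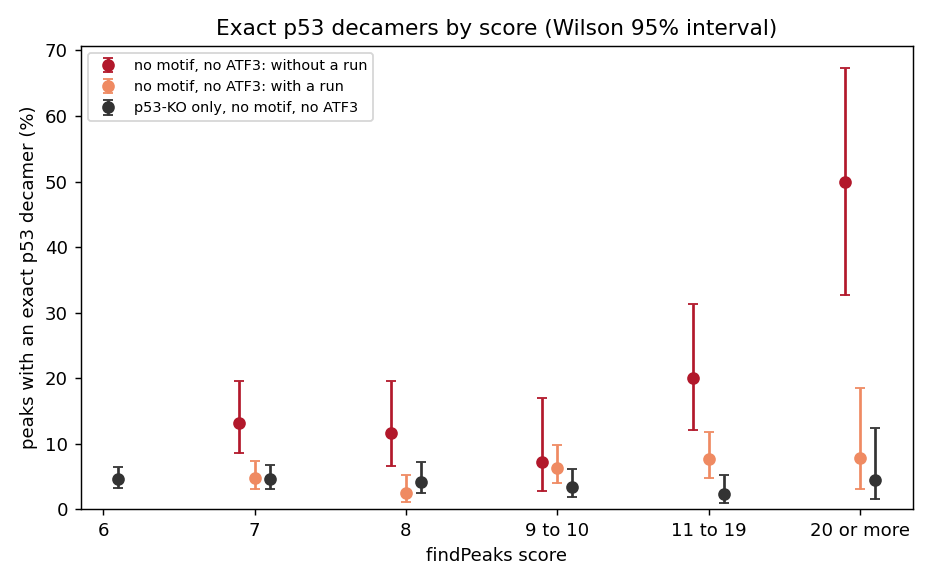
The share of peaks (%) with an exact p53 decamer by findPeaks score, with Wilson 95% intervals, for run-free and run-bearing no-motif peaks and for KO-only peaks. Of run-free peaks scoring 20 or more, 14 of 28 had one, against 7.84% with a run and 4.48% in KO-only peaks.

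High scores in run-bearing peaks went with tags piled on few positions. The clonal fold change compares the tags in a peak with the number expected from its distinct positions, and the focus ratio is the fraction of tags placed correctly around the centre. Of the 51 run-bearing peaks scoring 20 or more, 38 had a clonal fold change over 1.5, and the 51 had a median of 1.68 and a median focus ratio of 0.977. Of the 28 run-free peaks scoring 20 or more, 2 did, and the medians were 0.945 and 0.835. KO-only peaks scoring 20 or more had medians of 1.71 and 0.973. Over all scores a clonal fold change above 1.5 was found in 198 no-motif peaks (12.4%), 191 of them with a run, in 0.857% of motif sites, in 10.9% of KO-only peaks and in 14.7% of all p53-CPT peaks.

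**Figure D5:**
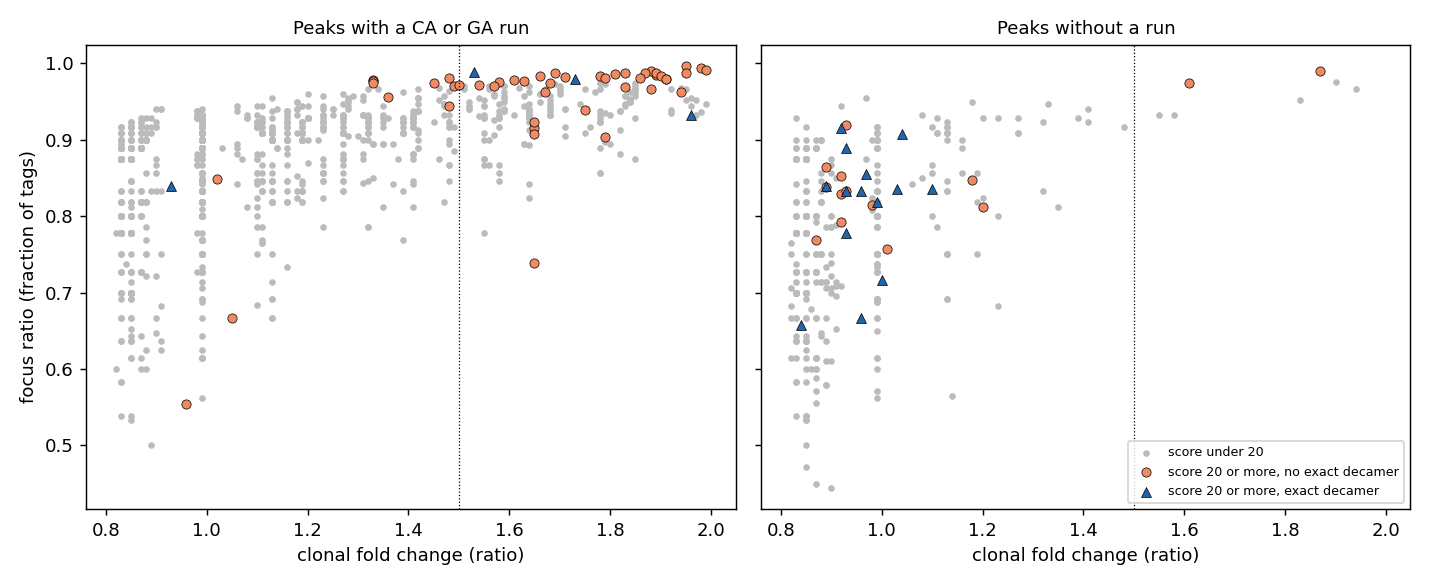
Focus ratio (fraction of tags) against clonal fold change (ratio) for each no-motif peak, with a run on the left and without on the right, and peaks scoring 20 or more drawn large (triangles, exact p53 decamer). High-scoring run-bearing peaks crowd at high values of both measures, 38 of 51 past the dotted line at 1.5, and high-scoring run-free peaks lie left of it in 26 of 28.

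The 10 highest-scoring no-motif peaks showed both kinds side by side. Run-bearing peaks made up 6 of the 10, and 7 of the 10 had a clonal fold change over 1.5. The RASGEF1B intron peak scored 94 with a normalized tag count of 877 (exact Poisson 95% interval 777 to 986), a clonal fold change of 1.95 and a focus ratio of 0.997. A peak 313 kb downstream of the start of SORL1 also scored 94, with a GA run of 48 bases and a clonal fold change of 1.79. The peaks nearest STIM2, SPDYE10, RAB10 and NAV3 scored 63, 59, 58 and 54, all with a GA run of at least 8 bases and clonal fold changes from 1.89 to 1.98. The STIM2 peak held 1 exact decamer and a pair 9 bp apart with 1 mismatch. Words of the SPDYE10 peak had a median of 4 copies in the genome, so that its place is uncertain.

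The other 4 of the 10 had no run, and 3 of them are described. The highest score of all, 144, belonged to an intron of CASZ1, a zinc-finger transcription factor gene, with a normalized tag count of 517 (441 to 603), a clonal fold change of 0.84 and a focus ratio of 0.658. It is a tandem array in which 13 exact decamers recur every 24 bp, so that the spacer exceeds the 13 bp searched, and its words have a median of 15 genome copies. A stretch of it is given with the decamers in capitals (chr1:10804535-10804684).
CASZ1: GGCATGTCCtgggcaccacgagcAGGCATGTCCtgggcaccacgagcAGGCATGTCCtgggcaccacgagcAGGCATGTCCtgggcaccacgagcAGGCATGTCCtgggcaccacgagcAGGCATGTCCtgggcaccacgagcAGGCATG

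The KITLG peak scored 89 with a normalized tag count of 366 (302 to 439) and lay in an intron 20.9 kb from the start of the gene, which encodes the ligand of the KIT receptor. It had 2 exact decamers, a clonal fold change of 1.03 and single-copy sequence. The GPD1L peak, 63.4 kb from the start of that gene, scored 76 with 637 (552 to 732) and resembled the run-bearing peaks instead, with a clonal fold change of 1.87, a focus ratio of 0.99 and no decamer with fewer than 2 mismatches. It is an interrupted CT repeat whose longest run, 6 bases, fell short of the 8 required (chr3:32210495-32210614, CT runs of 4 or more bases in capitals).
GPD1L: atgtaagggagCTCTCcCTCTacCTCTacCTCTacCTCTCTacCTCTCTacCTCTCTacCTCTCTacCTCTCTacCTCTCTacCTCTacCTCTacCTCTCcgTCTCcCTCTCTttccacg

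Below these, the EN2 peak, in an exon of CNPY1, scored 44 and was a second array, with 13 exact decamers spaced 11 bp apart in 5 steps and 22 bp apart in 4. The SDK2 peak scored 40 in an intron, with 2 exact decamers 1 bp apart. Of all 28 run-free peaks scoring 20 or more, 14 had an exact decamer, 11 a spaced pair with at most 1 mismatch and 17 a 20-mer with 4 mismatches. Any of these was present in 22 peaks, and 6 had none. The 20-mer with 4 mismatches was also the best match in 29.6% of flanks of run-free peaks, among flanks without the motif. The combined share was not computed for other sets. Chosen after their values were seen, the peak in the GNG12 intron, 40.1 kb from the start of the damage-response gene GADD45A, scored 32, the peak 6.83 kb upstream of MDM4, which encodes an inhibitor of p53, scored 28 with a 20-mer of 4 mismatches, and an exonic peak of PIDD1, a p53-induced death-domain gene, scored 24 with a pair 8 bp apart.

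Repeated sequence was not limited to the CA and GA runs. Low sequence complexity meant that under 0.5 of the 6-base words in a peak were distinct. It was found in 145 no-motif peaks (9.11%), near the 8.92% of all p53-CPT peaks and the 8.0% of KO-only peaks. In motif sites the share was 0.156%. Of the 145, 54 were run-free, the CASZ1 and EN2 arrays among them. Without those 54, 17.3% of run-free peaks had an exact decamer, 12.5 points over run-free KO-only peaks treated the same way (6.50 to 17.6).

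At the p53 target genes, 7 of 50 had a no-motif peak, 8 peaks in all, and 3 of the 8 scored 20 or more. Of the same 50 genes, 42 had a p53-CPT peak of any kind, 22 a motif site and 15 an ATF3-bound p53 site. The share over all genes was not computed, so 7 of 50 is a description only. KITLG, PLK3, SPATA18, SUSD6, TIGAR and TNFRSF10A had no motif site or ATF3-bound p53 site in the same window, and CMBL, a hydrolase gene, had a motif site. The KITLG peak, the PLK3 peak and a TIGAR peak are among those printed above. The PLK3 peak, 447 bp upstream of the start of this stress-responsive kinase gene, scored 44 with a normalized tag count of 155 (114 to 204). The TIGAR peak scored 25 with 88.3 (58.7 to 128). It lay 13.8 kb downstream of the outer start annotated for this regulator of glycolysis, and its distance to other transcript starts was not measured. At TNFRSF10A, a death receptor gene, a run-bearing peak 462 bp past the start scored 12. It held a GA run of 10 bases and 1 exact decamer.

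The remaining 4 peaks at target genes scored 13 or less. A further TIGAR peak scored 13, with a CA run of 54 bases and a clonal fold change of 1.46. The SPATA18 peak, which lies in SGCB, scored 9 on a CA run of 44 bases, the SUSD6 peak scored 7 on a CA run of 26 bases, and the CMBL peak scored 7 on a GA run of 16 bases. None of these 4 had an exact decamer.

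Run-free and run-bearing peaks also differed in location. Of all no-motif peaks, 110 (6.91%, 5.77 to 8.27) lay within 2 kb of a protein-coding TSS, against 5.54% of all p53-CPT peaks, 4.91% of motif sites and 3.33% of KO-only peaks. Introns held 40.5% of the no-motif peaks, exons outside promoters 1.82%, and 50.8% were intergenic. These shares were near the 41.2%, 1.92% and 51.4% of all p53-CPT peaks. Run-bearing peaks had a promoter share of 3.66%, 0.334 points over KO-only peaks (-0.934 to 1.74), and a median distance to a TSS of 76.8 kb. Run-free peaks had a promoter share of 17.0%, 11.7 points over run-free KO-only peaks (6.52 to 16.4), and a median distance of 31.5 kb. These were near the values of p53-CPT peaks overlapping ATF3-CPT, which had a promoter share of 20.7% and a median distance of 27.8 kb.

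The promoter peaks were not the strong ones. Among run-free peaks the promoter share was 23.4% at a score of 7, 21.1% at 8, 12.5% at 9 to 10, 4.62% at 11 to 19 and 7.14% at 20 or more. Of the 66 run-free promoter peaks, 61 scored 10 or less, 5 had an exact decamer (7.58%) and 41 (62.1%) had an ATF3-CPT peak within 500 bp that did not overlap them. With run-bearing peaks included, the highest-scoring promoter peaks were those of SPDYE10 and PLK3.

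ATF3 lists that the rule did not use touched few of these peaks, and mostly run-free ones. ATF3-Ctrl peaks overlapped 38 no-motif peaks (2.39%), against 6.36% of all p53-CPT peaks, which include those overlapping ATF3-CPT, and 0.546% of motif sites. The share for KO-only peaks was 0.832%. Of the 38, 31 were run-free and 11 had an ATF3-CPT peak within 500 bp. The 31 were 7.97% of run-free peaks, against 5.74% of run-free KO-only peaks. ATF3-KO peaks, which arise without ATF3, overlapped 24 no-motif peaks (1.51%), 19 of them run-free and 8 of low complexity, against 2.71% of all p53-CPT peaks and 0 of 1283 motif sites, which allows a share of up to 0.234%. An ATF3-CPT peak lay within 500 bp of 128 no-motif peaks (8.05%), a share 1.15 points under that of motif sites with an interval from -3.26 to 0.900, and of 20.1% of run-free peaks. The PLK3 peak had an ATF3-CPT peak 79 bp away and overlapped an ATF3-Ctrl peak by 127 bp.

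Base composition and the AP-1 core, the site of the factors with which ATF3 pairs, set the classes apart less. Median GC content was 43.9% in run-bearing and 49.5% in run-free peaks, against 46.7% in motif sites and 43.7% in KO-only peaks. The AP-1 core, TGAGTCA or TGACTCA on the forward strand, which are reverse complements of each other, was present in 60 no-motif peaks (3.77%), 4.05% of motif sites and 4.11% of KO-only peaks, and in 5.65% of all p53-CPT peaks. The difference between no-motif peaks and motif sites was 0.282 points lower, with an interval from -1.76 to 1.14. Per Mb of chromosome, no-motif peaks ranged from 0.356 on chromosome 13 to 0.786 on chromosome 16, and chromosome X had 72 of them and 28 motif sites.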

How the data were processed

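The authors aligned reads to hg19 (GRCh37) with BWA 0.6.1 and called peaks with HOMER 4.1, per the labels. Per the file headers, tags were normalized to 10000000, with an FDR of 0.001, a fold of 4 and p of 1e-04 over the local 10000 bp, and clonal peaks removed past a fold of 2. The deposited columns used were the normalized tag count (signal), the findPeaks score (a position-adjusted tag count), the focus ratio (a fraction), and the clonal fold change and fold over local (ratios). The p-value over local deposited by the authors was read but enters no result. No input library was used here.

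Coordinates were taken as 1-based. Sequence came from GRCh37, genes from GENCODE 44 lifted to it. Tags were recovered as normalized count times library size. The p53 decamer equals its own reverse complement, so 1 strand was searched. Peaks were named by the nearest protein-coding TSS. Each gene had 1 TSS, the outer start of its annotation, so starts of alternative transcripts do not enter the promoter shares or distances. Named were the 10 highest-scoring peaks, the highest-scoring peak at each target gene, and the 5 highest-scoring with an exact decamer or a spaced pair of at most 1 mismatch. 1 of these peaks is not reported here. The members, gene list and comparisons were chosen with earlier results of these data known, and the CA or GA runs, score bins, clonal limit of 1.5, complexity and copy-number measures after the peaks themselves had been seen. Differences of shares carry Newcombe and shares Wilson 95% intervals, with no test across peaks. The upper limits given for counts of 0 are instead 3 counts over the number of peaks, and lie under the Wilson limits. Searches and intervals were tested on simulated data (Python 3.11.15, scipy 1.17.1, pysam 0.24.0).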

Additional observations from a re-analysis of the deposited data

How the results depend on the processing

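No paired analysis was possible because each group has 1 library, and no library could be left out. Scores of at least 10 or 15 left 487 or 152 peaks, an exact decamer in 11.9% or 19.7%, promoters in 4.11% or 3.95%, and 13.96% or 0% under the p53-KO limit, and at 15 the probability of exceeding a motif site was 0.358 and runs were in 70.4%. A 20-mer of at most 2 or 4 mismatches gave decamers in 11.7% or 3.32% and runs in 67.8% or 80.2%, and at 4 a probability of 0.323. A spacer of up to 13 bp left 965 peaks, with decamers in 0.933%, runs in 80.1% and a probability of 0.331. This setting drops any peak whose exact decamer has a second one with at most 3 mismatches within that spacer. The low decamer share is therefore largely set by the rule, and the 20-mer of at most 4 mismatches acts in part the same way. With 100 bp added on either side the probability was 0.298, and by normalized tag count it was 0.326. Counting peaks within 500 bp as overlapping gave promoters 4.22%, ATF3-Ctrl overlap 1.73% and runs 79.2%, and requiring coverage of 50% of the peak gave 10.3%, 13.4% and 63.6%. The coverage setting switched the ATF3 filter off, since an ATF3-CPT peak of 125 bases cannot cover 50% of a p53-CPT peak of 319. It gave 2086 peaks, with peaks overlapping ATF3-CPT readmitted, so its values are not those of a stricter rule. Promoters of 1 or 5 kb held 5.22% or 10.50%. A decamer with at most 1 mismatch was in 63.9%.

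Chosen after seeing the data, dropping run-bearing peaks left 389, with decamers in 15.7%, promoters 17.0%, ATF3-Ctrl overlap 7.97% and 67.9% under the limit. A clonal fold change of at most 1.5 gave a probability of 0.242, runs in 72.6% and 67.6% under the limit, and runs of 12 bases were in 71.6%. In raw tags 0% lay under the limit, which was also so for all p53-CPT peaks. Removing peaks of low complexity, or ATF3-Ctrl and ATF3-KO peaks, moved no value past its interval or a count by 1.5 times. The planned removal of repeat-masked peaks was not run, since the reference marks no repeats. With 1 library a group, differences between lists have no replicate check.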
